A study of Mus musculus with 4 samples.

Results

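Mitochondria make most of a resting cell's ATP by oxidative phosphorylation, a chain of large protein complexes in the inner membrane. Complexes I and II take electrons from NADH and succinate, complex III passes them to the small carrier cytochrome c, complex IV hands them to oxygen, and complex V, the ATP synthase, uses the proton gradient built on the way. Most subunits are encoded in the nucleus and a small core is encoded by mitochondrial DNA, so the nuclear genes need to be expressed in proportion to one another and to the mitochondrial ones. The Kdm5a gene encodes RBP2, an enzyme that takes methyl groups off histone H3 at lysine 4, where methylation marks active promoters. Genes of mitochondrial function are among those it has been reported to bind in other cells. The question put to the data here is whether cells without RBP2 differed in the transcript levels of this machinery.

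The genes described are those whose symbol on the array starts with Nduf, Uqcr, Atp5 or Cox4 to Cox8, or is Sdha, Sdhb, Sdhc, Sdhd, Cyc1 or Cycs. They number 92 of the 18193 genes that had a probe set with exactly 1 symbol, and each gene is represented by its brightest probe set, the short probes that together read a transcript. By complex they are 34 genes of complex I, 4 of complex II, 9 of complex III, 19 of complex IV, 17 of complex V and the gene of cytochrome c. The remaining 8, whose symbols start with Ndufaf, encode assembly factors that help to build complex I and are not subunits of it, so the name oxidative phosphorylation subunits holds for at most 84 genes. Ndufa4 and Ndufa4l2 were counted with complex IV, where the Ndufa4 protein is now placed. A further 8 probe sets that carry such a symbol beside others were left out.

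The cells were primary mouse embryonic fibroblasts at passage 3, the connective tissue cells that grow out of dissociated embryos, from 2 independent wild-type lines and 2 independent RBP2-/- lines, with 1 Affymetrix array per line. The labels name no strain, embryo age or sex, removed part of the gene or treatment, and no further allele. The median deposited signal lay between 21.5 and 43.7 on the 4 arrays, which were therefore quantile normalized. All levels below are log2(signal + 9) after that step, and a probe set's brightness cannot be compared with that of another gene. Kdm5a itself had a level of 6.72 and 7.65 in wild-type lines 1 and 2 and of 6.40 and 6.49 in RBP2-null lines 1 and 2 on its brightest probe set. Its log2 fold change, RBP2-null minus wild type, was -0.74 ± 0.34 (SE, the fit's standard error, with 2 lines per genotype throughout), and it did not pass the threshold of a limma adjusted p of 0.05. Whether that probe set lies in the removed part is not known, so it may not check the labels. Wild-type line 1 stood somewhat apart, correlating at 0.933 to 0.937 with the other arrays, which correlated at 0.950 to 0.962 with one another. Of 9 fibroblast markers 9 were among the kept probe sets, with a mean level of 11.11 and 11.70 in wild-type lines and 11.36 and 11.66 in RBP2-null lines. For macrophage markers the mean level over 8 genes was 6.04 and 5.64 in wild type and 5.31 and 5.49 in RBP2-null cells, with 6 kept and Ptprc and Cd68 below the filter. These mean levels cover the genes of a marker list, kept or not. In bulk RNA, fewer cells of a type and less RNA per cell cannot be told apart. Nothing in the labels says more of how the lines were obtained, so p-values measure only the spread between 4 lines.

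Promoters of respiratory genes are known for sites of the factors NRF1, GABP of the ETS family, YY1 and the oestrogen-related receptors, which are thought to set these genes' common level. RefSeq promoters of build GRCm38.p6, 250 bases before to 50 after the transcription start, were found for 75 of the 92 genes. They were searched on both strands. The letters GCGCNTGCG, from the NRF1 site, were in 25 of 75, or 33.3%, against 7.12% of the 27025 genes with a promoter. The stricter GCGCATGCG, which the first form includes, was in 10, or 13.3%, against 1.95%. The ETS letters CCGGAAG were in 19, or 25.3%, against 9.93%, the YY1 letters AANATGGCG in 10, or 13.3%, against 2.76%, and AAGGTCA, part of the oestrogen-related receptor site, in 8, or 10.7%, against 5.38%. Of the 75 genes, 37 held GCGCATGCG or any of the last 3. The lines that follow show 5 promoters with the strict NRF1 letters and 3 with the ETS letters, which here lie on the opposite strand as CTTCCGG. Each sequence runs 5′ to 3′ along the gene's strand and ends at or before the start site, with the matched letters in capitals. They are shown because the genes are among those described below and because these letters were more frequent in the group than over all genes. Most promoters of the group lacked each of them. The NRF1 windows of Atp5g2, Atp5k, Cox6a1 and Cycs lie on the minus strand at chr15:102671056-102671114, chr5:108434416-108434474, chr5:115349087-115349145 and chr6:50566597-50566655, and that of Ndufaf4 on the plus strand at chr4:24897945-24898003. The capitals start 42, 50, 162, 61 and 113 bases before the start site, and in Cycs they are the opposite strand's form.
Atp5g2: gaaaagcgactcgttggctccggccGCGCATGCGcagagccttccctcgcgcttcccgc
Atp5k: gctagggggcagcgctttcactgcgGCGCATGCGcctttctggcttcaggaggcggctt
Cox6a1: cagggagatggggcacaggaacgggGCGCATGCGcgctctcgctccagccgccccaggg
Cycs: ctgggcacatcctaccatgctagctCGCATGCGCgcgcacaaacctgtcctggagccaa
Ndufaf4: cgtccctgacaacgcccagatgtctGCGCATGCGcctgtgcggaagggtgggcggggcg
The ETS windows of Atp5l, Uqcrh and Cox6b1 lie on the minus strand at chr9:44920923-44920979, chr4:116075071-116075105 and chr7:30626115-30626167, with the capitals starting 212, 10 and 28 bases before the start site.
Atp5l: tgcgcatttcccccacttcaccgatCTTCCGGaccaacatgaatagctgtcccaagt
Uqcrh: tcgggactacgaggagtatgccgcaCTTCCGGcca
Cox6b1: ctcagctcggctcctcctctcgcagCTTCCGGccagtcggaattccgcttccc

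No gene of the respiratory chain passed the test between cells with and without RBP2, and the differences measured were small once the arrays had been brought to a common distribution. Of the 92 genes, 89 were in the upper 60% of probe sets by mean level and were tested, and Cox7a1, Cox7b2 and Cox8b were too dim. In the fit of 27022 probe sets, 0 of the 89 genes passed a limma adjusted p of 0.05 and 0 had an unadjusted p under 0.05. Over all tested probe sets, 1, or 0.0037%, passed the adjusted threshold. At an unadjusted p under 0.05 the share over 13097 genes with 1 brightest probe set each was 2.6%. The median log2 fold change, RBP2-null minus wild type, was -0.0012 over the 89 genes and -0.010 over all 13097. It was above 0 for 44 and below 0 for 45 of them, and above 0 for 48.5% of all genes. Without wild-type line 1, which stood apart, 0 members passed and the median was 0.0015.

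The fold changes of single members were also small, as the plot of differences by gene shows. They ran from -0.44 for Atp5a1 to 0.42 for Cox7c, so that 0 of 89 lay beyond 0.5 in either direction, whereas 14.0% of all genes did. The middle of the distribution, from the 25th to the 75th percentile, spanned -0.11 to 0.14 for the members and -0.20 to 0.18 for all genes. The members were also brighter, with a median level of 9.54 against 6.78, and bright probe sets vary less in this fit. The 95% interval of the fold change stayed inside a 2-fold difference either way for 85 of 89 members, against 59.3% of all genes, and the exceptions were Ndufa5, Ndufaf6, Ndufa4l2 and Cox7c. That count rests on the scaling. With arrays centred on their medians it was 33 of 89, against 37.8% of all genes, and with the values as deposited it was 0 of 89, as for all genes.

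**Figure D1:**
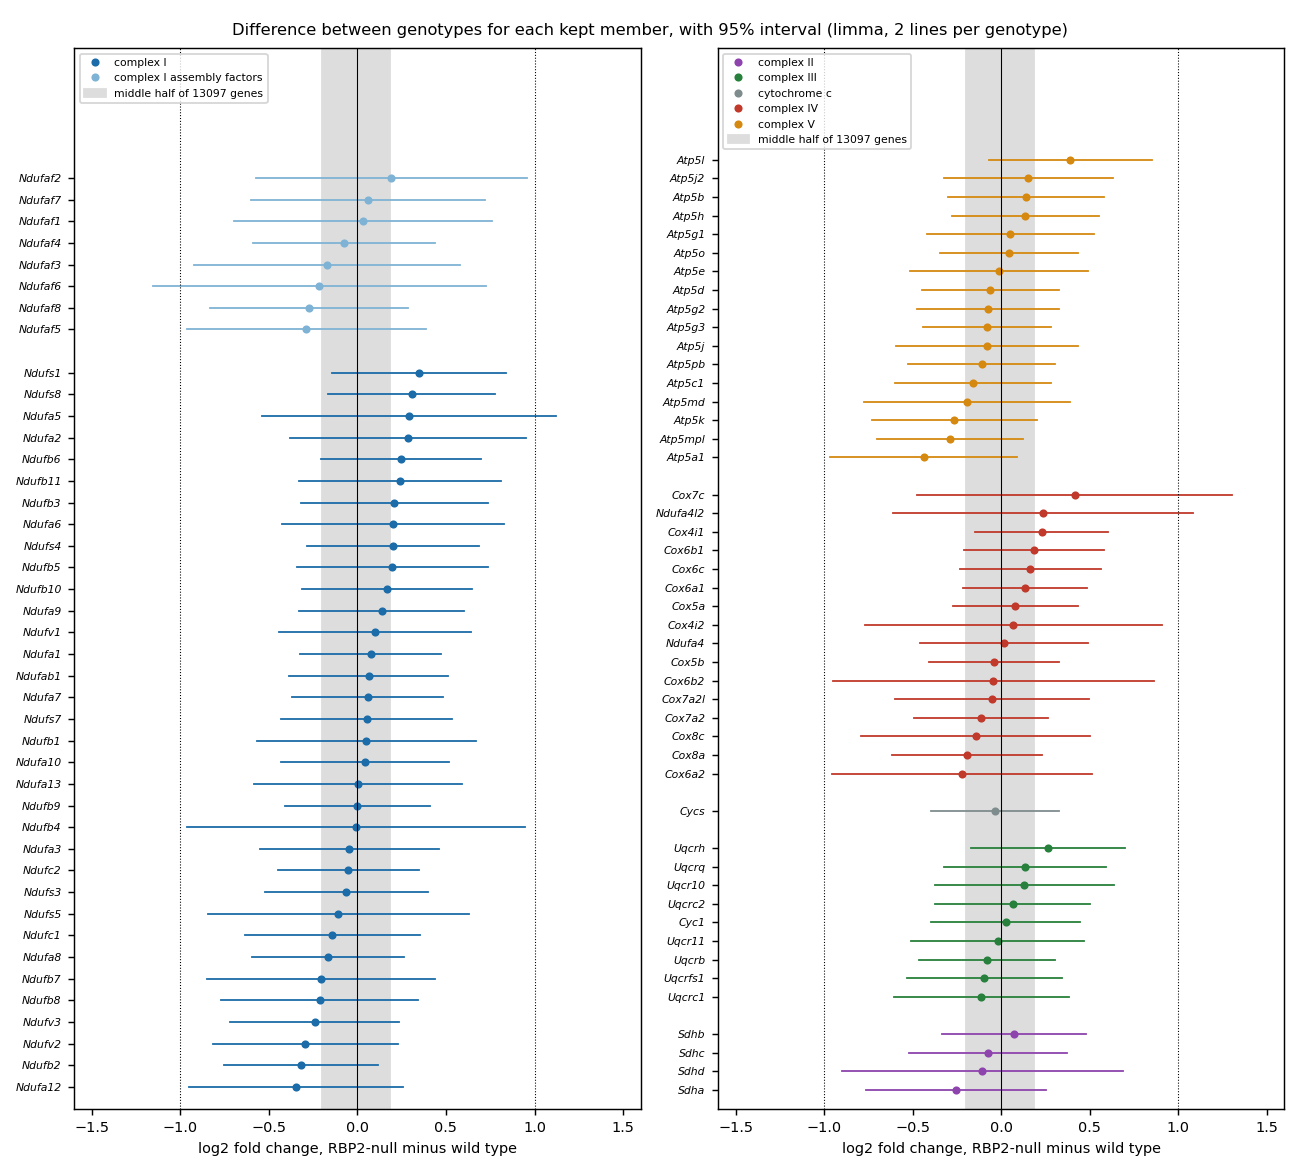
Log2 fold change of each of the 89 tested members, RBP2-null minus wild type, with its 95% interval from limma (2 lines per genotype), by complex on the vertical axis. The grey band runs from the 25th to the 75th percentile of 13097 genes, and the dotted lines mark a 2-fold difference. Every interval includes 0, and all but 4 stay between the dotted lines.

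The direction of the members as a group also depended on how the arrays were scaled. With median-centred arrays 82 of 89 members lay above 0 with a median of 0.27, but so did 73.2% of all genes, whose median moved to 0.19. Without scaling 88 of 89 lay above 0 with a median of 0.47, against 86.4% of all genes and a median of 0.39. Relative to the median of all genes the members stood 0.0092 higher after quantile normalization and 0.073 higher in both of the other scalings, with 46, 60 and 60 of 89 above it. No member passed in any of the 3 scalings.

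For most members the lines of at least 1 genotype differed from each other by more than the genotype means did, as was the case for most genes. The genotype difference was smaller than the larger of the 2 differences between lines of the same genotype for 74 of 89 members, or 83.1%, against 82.6% of all genes. The median absolute difference was 0.16 between the wild-type lines, 0.21 between the RBP2-null lines and 0.14 between the genotype means. Means of 2 arrays vary less than single arrays, so these measures are not alike and their order says little about genotype. The groups did not overlap for 24 of 89 members, against 29.2% of all genes. Both RBP2-null arrays lay above both wild-type arrays for 13 members, or 14.6% against 13.4% of all genes, and below them for 11, or 12.4% against 15.8%. By complex, the groups did not overlap for 7 of 34 genes of complex I, 1 of 8 assembly factors, 2 of 4 genes of complex II, 2 of 9 of complex III, 8 of 16 of complex IV and 4 of 17 of complex V. Of the 8 in complex IV, 5 were higher and 3 lower in RBP2-null cells.

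Complex I, the NADH dehydrogenase, had 20 of 34 fold changes above 0 and 14 below, with a median of 0.051. Ndufs1, the subunit with the largest set of iron-sulphur clusters, had the highest value. Its levels were 8.07 and 8.09 in wild-type lines and 8.45 and 8.40 in RBP2-null lines, so the groups did not overlap and the lines of each genotype lay close together. The log2 fold change of Ndufs1 was 0.35 ± 0.21 (SE), with a 95% interval from -0.14 to 0.84 and a limma adjusted p of 1.00. Ndufs8, another iron-sulphur subunit, had 9.53 and 9.94 in wild type and 9.998 and 10.09 in RBP2-null cells. Its groups did not overlap either, although wild-type line 1 stood well below the other 3 arrays. Its log2 fold change was 0.31 ± 0.21 (SE), and 0.11 without wild-type line 1.

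At the other end of complex I were Ndufa12 and Ndufb2, accessory subunits. Ndufa12 had levels of 10.28 and 9.74 in wild-type lines and 9.37 and 9.96 in RBP2-null lines. The groups overlapped, and RBP2-null line 1 was the lowest array. The log2 fold change of Ndufa12 was -0.35 ± 0.26 (SE), and -0.056 without that line. Ndufb2 had 9.83 and 9.68 in wild type and 9.41 and 9.46 in RBP2-null cells, without overlap. Its log2 fold change was -0.32 ± 0.19 (SE), with an interval from -0.75 to 0.12. The other kept probe set of Ndufb2 had -0.022, and there the groups overlapped. On the brightest probe set the groups also failed to overlap for Ndufa8, which was lower in RBP2-null cells. The same held for Ndufa1, Ndufb10 and Ndufs4, which were higher. These fold changes all lay between -0.17 and 0.20.

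The 8 complex I assembly factors had 3 fold changes above 0 and 5 below, with a median of -0.12. Ndufaf5 was the 1 member whose groups did not overlap, with levels of 6.32 and 6.51 in wild type and 5.99 and 6.25 in RBP2-null cells and a log2 fold change of -0.29 ± 0.29 (SE). The others ranged from -0.27 for Ndufaf8 to 0.19 for Ndufaf2. RBP2-null line 1 was the lowest array for 6 of these 8 genes.

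Complex II, succinate dehydrogenase, is shared with the tricarboxylic acid cycle and has no mitochondrially encoded subunit. Sdha, its flavoprotein, had levels of 8.85 and 9.08 in wild-type lines and 8.55 and 8.88 in RBP2-null lines. The groups overlapped, and the log2 fold change was -0.26 ± 0.22 (SE). Sdhb, its iron-sulphur subunit, had 10.09 and 10.03 in wild type and 10.10 and 10.16 in RBP2-null cells. These 4 values lay within a narrow range, with the RBP2-null arrays just above, and the log2 fold change was 0.072 with an interval from -0.33 to 0.48. Of the membrane anchors, Sdhc had 9.16 and 9.18 in wild type and 9.05 and 9.14 in RBP2-null cells, a log2 fold change of -0.073. The other kept probe set of Sdhc had 0.31, with overlapping groups. The brightest Sdhd probe set differed by line number and not by genotype. It had 10.01 and 9.89 in wild-type and RBP2-null line 1 and 9.14 and 9.05 in the lines numbered 2. Its log2 fold change was -0.11 ± 0.35 (SE), and the sign turned without wild-type line 1, at 0.33, and without RBP2-null line 2, at 0.31. The dimmer Sdhd probe set did not show this split, with 7.24 and 7.37 in wild type and 7.42 and 7.44 in RBP2-null cells. Both RBP2-null arrays were higher there, and the difference was 0.12 ± 0.24 (SE).

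Complex III, which oxidises ubiquinol, had 5 of 9 fold changes above 0 and a median of 0.026. Uqcrh, the hinge subunit that contacts cytochrome c1, had levels of 9.69 and 9.60 in wild type and 9.80 and 10.02 in RBP2-null cells. Both RBP2-null lines were above both wild-type lines, and the log2 fold change was 0.26 ± 0.19 (SE). The other kept probe set of Uqcrh had 0.063, and there the groups overlapped. Uqcrfs1, the Rieske iron-sulphur protein, had levels of 9.55 in both wild-type lines and 9.54 and 9.37 in RBP2-null lines, a fold change of -0.095. Uqcrc1, a core subunit, had 10.08 and 10.50 in wild type and 10.02 and 10.34 in RBP2-null cells. Here the lines numbered 2 were the high arrays of both genotypes, and the log2 fold change was -0.11, or 0.094 without wild-type line 2. Uqcrq, a small subunit, had a fold change of 0.14, and Cyc1, the cytochrome c1 protein itself, had 0.026. Cycs, the mobile cytochrome c, had levels of 11.73 and 11.60 in wild type and 11.65 and 11.61 in RBP2-null cells, so the RBP2-null arrays lay between the wild-type ones. Its log2 fold change was -0.036 with an interval from -0.40 to 0.33.

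Complex IV, cytochrome c oxidase, has several subunits that come in a widely expressed form and in forms restricted to muscle, testis or other tissues. Of its 19 genes 16 were tested, 9 with fold changes above 0 and 7 below, with a median of 0.042. Cox4i1, the common form of subunit 4, had levels of 11.36 and 11.31 in wild type and 11.65 and 11.47 in RBP2-null cells. The groups did not overlap, and the log2 fold change was 0.23 ± 0.16 (SE), with an interval from -0.15 to 0.61. Its partner Cox4i2, known from lung and for its response to low oxygen, had 5.31 and 5.36 in wild type and 5.57 and 5.24 in RBP2-null cells, a fold change of 0.069 ± 0.37 (SE). Cox6a1 had 12.08 and 11.96 in wild type and 12.18 and 12.13 in RBP2-null cells, again without overlap, with a fold change of 0.13. The muscle form Cox6a2 had 5.94 and 5.82 in wild type and 5.62 and 5.69 in RBP2-null cells. Its groups did not overlap in the opposite direction, with a log2 fold change of -0.22 ± 0.32 (SE).

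For subunits 4, 6a and 6b the common form had the higher fold change of the pair, a difference that was not tested. Cox6b1 had a fold change of 0.18 and the testis form Cox6b2 -0.043, with standard errors of 0.17 and 0.40. Cox7a2 and the related Cox7a2l, a factor that joins respiratory complexes into larger assemblies, had -0.11 and -0.052. Cox8a, whose groups did not overlap on its brightest probe set, had levels of 10.13 and 9.94 in wild type and 9.80 and 9.88 in RBP2-null cells. Its fold change there was -0.19 ± 0.19 (SE). The other kept probe set of Cox8a had -0.010, with overlapping groups. Cox8c, a testis form, had -0.14 ± 0.28 (SE). The muscle forms Cox7a1 and Cox8b and the testis form Cox7b2 were not tested. Their highest deposited signals on any array were 13.1, 5.4 and 21.1. Of the 10 muscle markers 5 were kept, with Myog, Actn2, Myh3, Tnnt3 and Myh6 below the filter, and the mean level of the list was 5.40 and 5.27 in wild type and 5.25 and 4.97 in RBP2-null cells. The part of such cells in Cox6a2 was not tested. Ndufa4 had a fold change of 0.016 and its relative Ndufa4l2 0.24, with standard errors of 0.21 and 0.37.

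Cox7c had the highest fold change of all members, and it was a dim one. Its levels were 5.22 and 5.07 in wild type and 5.85 and 5.27 in RBP2-null cells, from deposited signals of 22.0, 24.6, 35.9 and 44.0. RBP2-null line 1 stood apart from the other 3 arrays, the log2 fold change was 0.42 ± 0.39 (SE), and it was 0.13 without that line. Cox7c encodes a subunit without tissue forms, and its other probe set was too dim to be tested. Why its signal was low was not tested.

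**Figure D2:**
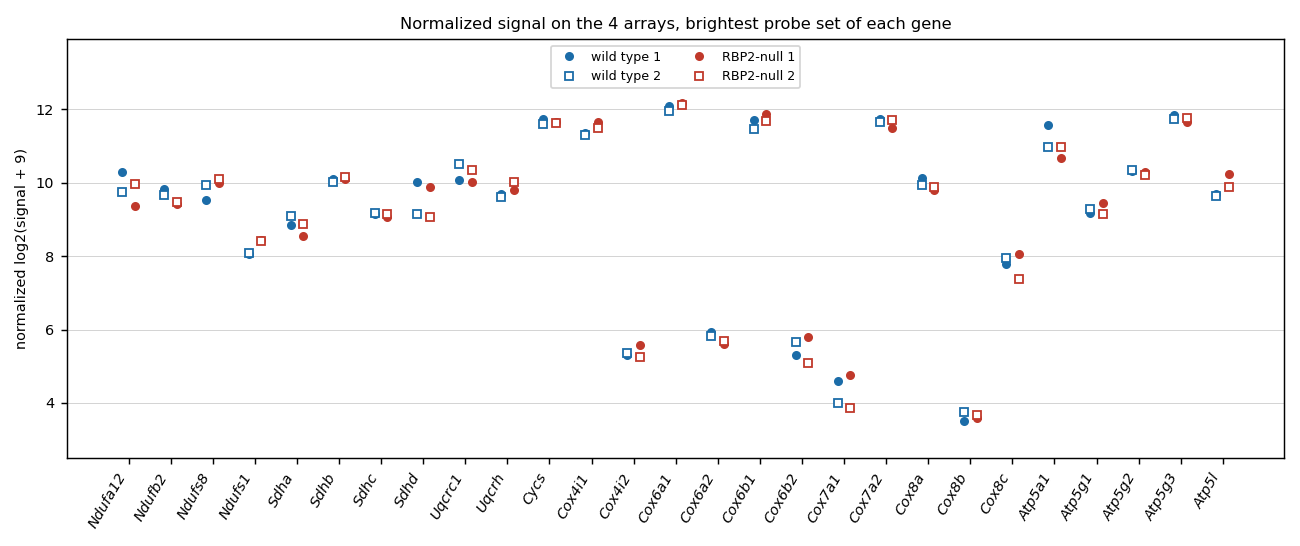
Normalized log2(signal + 9) of the brightest probe set of 27 members on each of the 4 arrays, with wild type in blue, RBP2-null in red, filled symbols for line 1 and open ones for line 2. Most genes show 4 points close together. Among those with wider gaps between lines of a genotype are Atp5a1, Sdhd, Ndufa12, Cox6b2, Cox7a1 and Cox8c. Cox7a1 and Cox8b lie near the bottom of the scale. Brightness differs between probe sets and does not rank the genes.

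Complex V, the ATP synthase, had 6 of 17 fold changes above 0 and 11 below, with a median of -0.076. It held the members with the smallest unadjusted p, which lay in opposite directions. Atp5l, the g subunit of the membrane part, had levels of 9.70 and 9.64 in wild type and 10.24 and 9.88 in RBP2-null cells. Both RBP2-null arrays lay above both wild-type arrays, and the log2 fold change was 0.39 ± 0.20 (SE), with an interval from -0.070 to 0.85 and a limma adjusted p of 1.00. Atp5a1, the alpha subunit of the catalytic head, had 11.57 and 10.96 in wild type and 10.68 and 10.97 in RBP2-null cells. The groups overlapped, since wild-type line 1 was high and wild-type line 2 was level with RBP2-null line 2. The log2 fold change of Atp5a1 was -0.44 ± 0.23 (SE), with an interval from -0.97 to 0.091, and it was -0.13 without wild-type line 1. Its catalytic partner Atp5b, the beta subunit, had 0.14.

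Among the smaller subunits of complex V, Atp5mpl, a small proteolipid of the membrane part, had levels of 10.04 and 10.01 in wild type and 9.76 and 9.71 in RBP2-null cells. The lines of each genotype nearly coincided, and the log2 fold change was -0.29 ± 0.18 (SE), and it lay between -0.31 and -0.27 whichever array was left out. With median-centred arrays it was 0.028 and without scaling 0.23, both below the medians of all genes, 0.19 and 0.39. On its brightest probe set Atp5k, the e subunit of the membrane part, was also lower in both RBP2-null lines, at -0.26. Its other kept probe sets had -0.12, with overlapping groups, and 0.21, with both RBP2-null lines higher. Atp5j2, the f subunit, had 0.15, or -0.089 without RBP2-null line 2. Subunit c, which forms the rotating ring, is encoded by 3 genes for the same mature protein, and their fold changes were 0.052 for Atp5g1, -0.076 for Atp5g2 and -0.078 for Atp5g3. Atp5g3 had levels of 11.84 and 11.73 in wild type and 11.66 and 11.75 in RBP2-null cells. The standard errors of these 3 genes were 0.21, 0.18 and 0.16, larger than any of the differences.

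The lines within the RBP2-null genotype differed by complex, as the plot of deviations by array shows. RBP2-null line 1 was the highest of the 4 arrays for 10 of the 16 tested complex IV genes, against 25.4% of all genes, and the lowest for 6 of the 8 assembly factors, against 25.3%. Relative to the median of all genes, the median of line 1 minus line 2 was 0.17 for complex IV, -0.14 for complex I and -0.32 for the assembly factors. Line 1 lay above line 2 for 12 of 16 complex IV genes and below it for 25 of 34 complex I genes. With median-centred arrays these medians were 0.41, -0.079 and -0.30, and with only the upper 40% of probe sets kept they were 0.097, over 12 complex IV genes, -0.14 and -0.28. This contrast is between lines of the same genotype, was noticed in these data and has no replicate, so it has no test. Wild-type line 1 minus line 2 was 0.067 for complex IV and 0.019 for complex I on the same measure, and with median-centred arrays it was -0.0090 and -0.14.

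**Figure D3:**
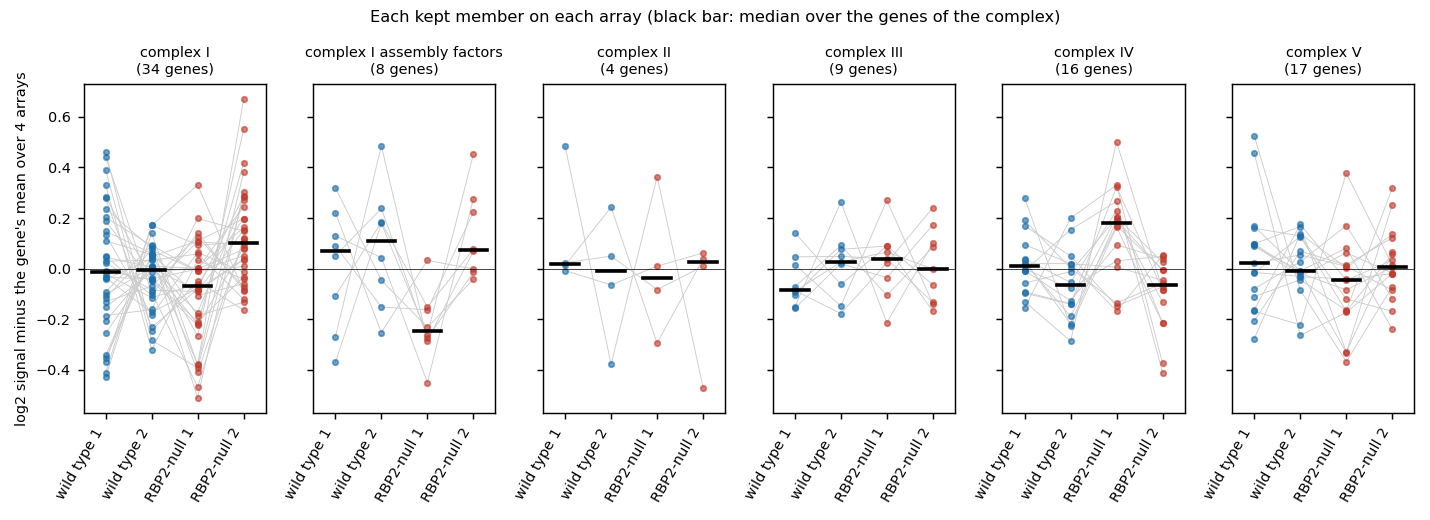
Level of each tested member on each array as a deviation from the gene's own mean over 4 arrays, in log2 units, by complex, with wild type in blue, RBP2-null in red, grey lines joining a gene and black bars for medians. The median on RBP2-null line 1 is 0.18 for complex IV and -0.25 for the assembly factors, against -0.064 and 0.073 on RBP2-null line 2.

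Several members were read by more than 1 probe set, which gives a second reading from the same arrays. The members had 184 probe sets, of which 159 were kept, and 45 genes had at least 2 kept ones. For 26 of these 45 the probe sets gave fold changes on both sides of 0. For Atp5a1 they ran from -0.44 on the brightest to 0.40 on another, and for Ndufs8 from 0.31 on the brightest to -0.56. The lowest unadjusted p of any member probe set belonged to a dimmer one of Cox8c, with levels of 6.89 and 6.41 in wild type and 5.80 and 5.01 in RBP2-null cells. Both RBP2-null lines were lower there, the log2 fold change was -1.25 ± 0.37 (SE), and the limma adjusted p was 1.00. Dimmer probe sets of the complex IV genes Cox5a and Cox6c had log2 fold changes of 0.64 and 0.62 with standard errors of 0.24 each, against 0.079 and 0.17 on their brightest ones, and wild-type line 1 was the lowest array for both. These 3 were the only kept member probe sets, of 159, at an unadjusted p under 0.05, and 0 passed the adjusted threshold. Over all tested probe sets 2.99% had an unadjusted p under 0.05.

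**Figure D4:**
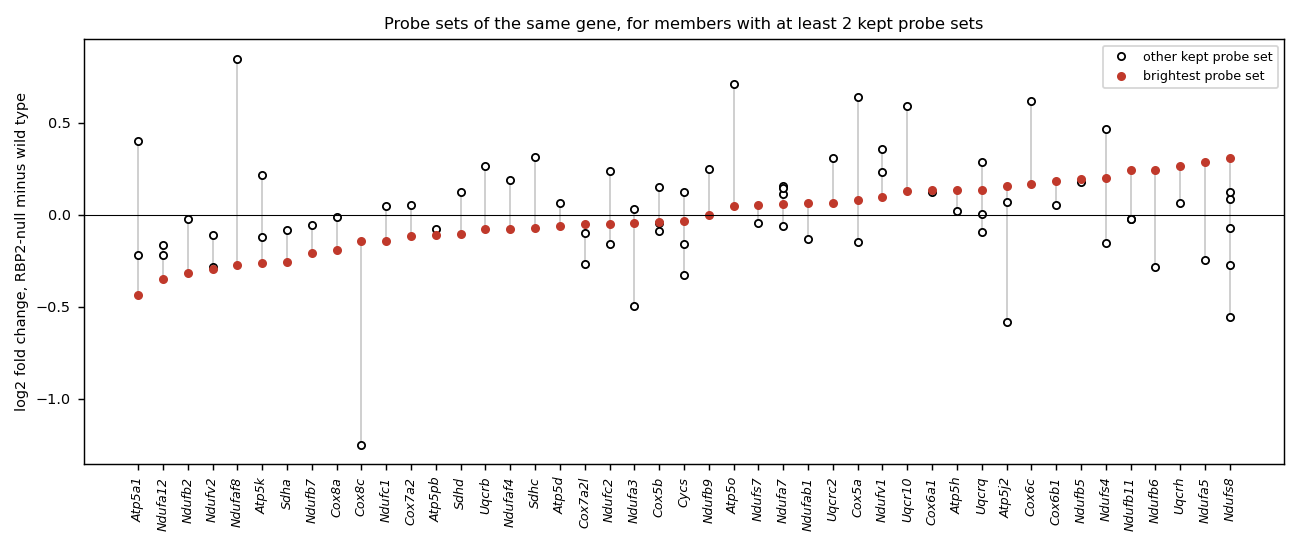
Log2 fold change, RBP2-null minus wild type, of every kept probe set of the 45 members with at least 2, with the brightest in red and the others as open circles, ordered by the brightest. The brightest probe sets lie between -0.44 and 0.31, the others reach from -1.25 for Cox8c to 0.85 for Ndufaf8, and for 26 genes they lie on both sides of 0.

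Genes that act beside the subunits were read in the same fit from lists of assembly factors, regulators and neighbouring pathways, and none of them passed the threshold. The 46 tested assembly and inhibitor genes, which include the Ndufaf genes above, had 27 fold changes above 0 and a median of 0.049. Of all genes 48.5% lay above 0. Of the 46 assembly and inhibitor genes, 1, or 2.17%, had an unadjusted p under 0.05, near the 2.6% of all genes. It was Uqcc1, an assembly factor of complex III, with levels of 5.93 and 5.72 in wild type and 6.89 and 6.47 in RBP2-null cells. Its groups did not overlap, its log2 fold change was 0.86 ± 0.31 (SE), with an interval from 0.15 to 1.56, its other kept probe set had 1.11, and its limma adjusted p was 1.00. By complex, the assembly lists had medians of -0.028 for complex I with 7 of 15 above 0, 0.0053 for complex II with 2 of 4, 0.036 for complex III with 3 of 5, 0.10 for complex IV with 12 of 17, and 0.081 for complex V with 3 of 5.

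Among the assembly genes with the smallest p in the other lists, Coa7 and Nubpl rested largely on wild-type line 1. Coa7, an assembly factor of complex IV, had levels of 3.65 and 5.96 in wild type and 5.997 and 6.50 in RBP2-null cells. Wild-type line 1 was near the bottom of the scale, with a deposited signal of 3.0, and the log2 fold change was 1.44 ± 0.67 (SE). Without wild-type line 1 Coa7 had 0.30. Without wild-type line 2, where the dim line 1 alone stood for wild type, it had 2.59. Nubpl, which delivers iron-sulphur clusters to complex I, had 5.43 on wild-type line 1 and between 6.72 and 6.93 on the other arrays, and its log2 fold change turned from 0.66 to -0.072 without that line. Atpaf1 of complex V had 0.41, or 0.11 without wild-type line 1. Sdhaf2 of complex II had -0.14, and its value ran from -0.45 without RBP2-null line 1 to 0.18 without RBP2-null line 2.

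The regulators of respiratory genes had 10 of 12 tested fold changes above 0, against 48.5% of all genes, with a median of 0.12. Of the NRF1 and GABP factors, Nrf1 had 0.049, Gabpa 0.25, Gabpb1 0.35 and Gabpb2 0.41, and without wild-type line 1 Gabpb1 had -0.0031 and Gabpb2 0.088. Yy1 had 0.17 and the receptor Esrra -0.15. Ppargc1a, the coactivator that drives mitochondrial biogenesis, had levels of 5.37 and 5.09 in wild type and 5.02 and 3.85 in RBP2-null cells. Line 2 of the RBP2-null genotype was the low array, the log2 fold change was -0.79 ± 0.52 (SE), and it was -0.19 without that line. Ppargc1a was dim, with deposited signals of 24.8 and 25.1 in wild type and 17.1 and 7.9 in RBP2-null cells. Of its 5 probe sets 1 was kept, and that 1 fell below the filter with any other array left out. Its relative Ppargc1b was too dim to be tested, with levels of 4.15 and 4.06 in wild type and 4.78 and 5.31 in RBP2-null cells, and Pprc1 had 0.019. Of the factors that act in mitochondrial gene expression, Tfam had 0.17, Tfb1m 0.29, Tfb2m 0.052 and Polrmt 0.065. Pprc1, Nrf1, Tfam, Tfb2m and Polrmt turned below 0 with some single array left out, with lowest values of -0.090, -0.19, -0.14, -0.18 and -0.070. Kept probe sets lay on both sides of 0 for Nrf1, from -0.26 to 0.086, and Yy1, from -0.093 to 0.23. They also did for Esrra, from -0.15 to 0.21. For Gabpa, Gabpb1, Gabpb2, Tfam and Polrmt all kept probe sets lay above 0.

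The mitochondrial genome was represented by a single probe set, that of ND5, a proton-pumping subunit of complex I. Its levels were 10.85 and 10.50 in wild type and 10.36 and 10.44 in RBP2-null cells, and the log2 fold change was -0.27 ± 0.19 (SE). Both RBP2-null arrays were lower, wild-type line 1 was the high array, and the value was -0.098 without it. Genes of the tricarboxylic acid cycle and pyruvate dehydrogenase, which supply NADH and succinate, had a median of 0.026. Of their 16 fold changes 12 lay above 0, against 48.5% of all genes. The smallest p there belonged to Fh1, fumarase, with 8.65 on wild-type line 1, between 9.51 and 9.71 on the other arrays, a fold change of 0.39 and -0.15 without that line. Carriers and channels had 2 of 6 fold changes above 0 and a median of -0.10, with 0.24 for Slc25a4, an exchanger of ADP and ATP.

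By the promoter letters described above, the fold change was above 0 for 8 of 25 tested members with GCGCNTGCG and 2 of 10 with GCGCATGCG. It was above 0 for 9 of 19 with CCGGAAG, 7 of 10 with AANATGGCG and 1 of 8 with AAGGTCA. Over all 89 tested members it was above 0 for 44. These 89 include the members with the letters and members without a RefSeq promoter, which were not searched. The 25 tested members with GCGCNTGCG had a median log2 fold change of -0.076 and the 47 without it 0.042. For GCGCATGCG the medians were -0.076 in 10 members and 0.023 in 62. For CCGGAAG the medians were -0.012 in 19 members and -0.0088 in 53, for AANATGGCG 0.096 in 10 and -0.028 in 62, and for AAGGTCA -0.092 in 8 and 0.023 in 64. The differences between these medians were not tested. GCGCNTGCG was in 7 of 31 promoters of complex I, 2 of 3 of complex II and 3 of 5 of complex III. It was in 1 of 13 of complex IV and 9 of 15 of complex V. Complexes I to V had median fold changes of 0.051, -0.089, 0.026, 0.042 and -0.076. The letters were thus spread unevenly over the complexes, and letters and complex were not separated. Among the promoters printed above, Atp5k and Atp5g2 belonged to genes that were lower in both RBP2-null lines on the brightest probe set. Cox6a1, Atp5l and Uqcrh belonged to genes that were higher in both on that measure, while the groups overlapped for Cycs, Ndufaf4 and Cox6b1. Other kept probe sets of Atp5k and Uqcrh did not show the same separation.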

How the data were processed

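The values the authors deposited are linear intensities of 45101 probe sets on each array. Per the labels, biotin-labelled total RNA was hybridised to Affymetrix arrays. No source used here states how probes were summarised or background was corrected, or which probe sets were detected. Symbols came from a platform annotation, and all 92 members matched a RefSeq gene table of GRCm38.p6.

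Intensities were quantile normalized, a pseudocount of 9 (the 25th percentile) was added before log2, and the upper 60% by mean were kept after removal of 64 controls. Differences understate the change of dim probe sets. Genotypes were compared with limma 3.58.1 (lmFit, and eBayes with a mean-dependent prior; R 4.3.3), two-sided, with Benjamini-Hochberg adjustment over 27022 probe sets. The procedure was tested on simulated data. With 2 lines a genotype, 0.333 is the smallest p an exact permutation test allows. The number of arrays limits the precision.

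The members, gene lists and tests were chosen with earlier results of these data known. Named genes are the 2 highest and 2 lowest of complexes I, III, IV and V, complex II and cytochrome c in full, tissue isoforms, subunit c genes, regulators, and the smallest p of each other list. Further genes were named after their values were seen, where groups did not overlap, probe sets disagreed or an interval stood out. Alternatives covered pseudocount, filter, scaling, variance model, probe sets, block, threshold and single arrays. Promoters were searched for fixed letters on both strands, and the NRF1 letters were shortened by a base after counts for the longer form had been seen.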

Additional observations from a re-analysis of the deposited data

How the results depend on the processing

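No member passed under any of the alternatives run, at an adjusted p of 0.10 included. The count of probe sets past the threshold, 1, was 0 without the filter, without scaling and without the mean-dependent variance, 2 with median-centred arrays, and 0 to 85 with single arrays left out. It was 0 without RBP2-null line 2, 85 without wild-type line 2 and 2 without wild-type line 1. With the replicate number as a block it was 39, with 0 members among them. Atp5a1 and Atp5l then had an unadjusted p under 0.05, where 6.02% of all genes did. The labels give the numbers no shared origin, and the differences between lines 1 and 2 correlated at 0.11 between genotypes over the kept probe sets and 0.19 over the members, from only 2 pairs, so the numbers were not taken as pairs.

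Medians of fold changes moved with the scaling. With median-centred arrays they were 0.27 for all members, 0.35, 0.24, 0.34, 0.27 and 0.23 for complexes I to V, 0.089 for the assembly factors and 0.26 for Cycs. Without scaling they were 0.47, then 0.55, 0.44, 0.54, 0.47 and 0.43, then 0.29 and 0.47, where all genes had 0.39. With single arrays left out, the ranges were -0.014 to 0.035 for all members, -0.038 to 0.093, -0.10 to 0.0073, 0.0064 to 0.094, -0.036 to 0.21 and -0.077 to -0.030 for complexes I to V, -0.28 to 0.026 for the assembly factors and -0.090 to 0.025 for Cycs. Complex II had -0.017 without probe sets that can bind several transcripts. With the median over a gene's probe sets complex II had 0.041 and the assembly factors 0.044. The cause was not tested.

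The count of members with an interval inside a 2-fold difference was 33 with median-centred arrays, 0 without scaling and 62 to 74 with single arrays left out, an alternative chosen after seeing the data. Of 54 named genes, 17 of 53 changed sign with median-centred arrays, 21 of 53 without scaling 0 of 54 with another pseudocount, 9, 7 and 7 of 53 without wild-type line 1, wild-type line 2 and RBP2-null line 1, and 7 of 54 without RBP2-null line 2.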
